A study of Homo sapiens with 12 samples.

Results

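Cytosolic ribosomal protein genes, the genes for the protein parts of the ribosome outside mitochondria, were followed in MCF10A cells, an immortal but non-transformed line of human breast epithelium. Probes were taken by the gene symbol in the platform annotation, RPL or RPS with a number and at most one letter A, X or L, together with RPLP0, RPLP1, RPLP2 and RPSA. The rule found 119 probes of 72 symbols, and a gene was kept with its brightest probe detected (detection p under 0.05) on all 12 arrays. That left 68 genes, 42 of the large (60S) and 26 of the small (40S) subunit, among 16171 items measured (11205 named genes and 4966 unnamed probes). Of the 4 symbols left out, RPL10L and RPL3L were detected on 0 arrays, the probes of RPL10 on 0 and 1, and those of RPL39L on 4 and 6. No probe carried the symbol RPLP0 or RPSA in the annotation, and both were not analysed here.

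Total RNA was measured on Illumina bead arrays in 4 groups of 3 arrays, titled Ctr MCF10A.B2, Cas, ErbB2 and Cas/ErbB2. ErbB2 is the receptor kinase also called HER2 and Cas stands, by the series title, for the adaptor p130Cas. The first group, called control here, is labelled as modified MCF10A cells like the other 3. What MCF10A.B2 cells carry, how ErbB2 or Cas was raised or activated, and whether a group is 1 clone or culture are not given in the sources used here, so the p-values speak only of the spread among these 12 arrays, which may be technical. Of 10 mammary epithelial marker genes 8 had a probe, and all 8 were detected on all 12 arrays. Of 10 markers of other cell types 5 were detected on 0 arrays, 2 on some and 3 (PECAM1, CD14 and ACTA2) on all 12. Of these, PECAM1 was higher than control in ErbB2 (log2 0.62 ± 0.13, adjusted p = 0.00369), Cas (log2 0.43 ± 0.13, adjusted p = 0.0287) and Cas/ErbB2 cells (log2 0.56 ± 0.13, adjusted p = 0.00441), and CD14 in Cas (log2 1.10 ± 0.22, adjusted p = 0.0033) and Cas/ErbB2 cells (log2 0.67 ± 0.22, adjusted p = 0.0271), by limma. ACTA2 was higher in Cas/ErbB2 than in Cas cells (log2 0.53 ± 0.13, adjusted p = 0.02). PECAM1 read low on the control arrays (mean log2 7.68), and the part of these markers in the results was not tested. In total RNA, fewer cells with a transcript and less of it per cell cannot be told apart.

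Each ribosome joins a small subunit, which reads the mRNA codon by codon, to a large subunit, which forms the peptide bonds and holds the tunnel through which the new chain leaves. Most of its proteins are needed in equal numbers, and the mRNAs of ribosomal proteins are among the most abundant of a growing cell. They belong to the TOP mRNAs, which begin with a C followed by an unbroken stretch of pyrimidines. This stretch lets the kinase mTOR, acting through the RNA-binding protein LARP1, set how much of them is translated. Receptor kinases such as ErbB2 feed into mTOR through the PI3 kinase pathway, and an array of total RNA sees the mRNA level but not its translation.

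The start sites show the feature that these genes share outside the rule. RefSeq (GRCh38.p14) gave a start for 58 of the 68 genes. For 42 of them (72.4%) an annotated start was a C with at least 4 further C or T letters behind it, on the strand that reads like the mRNA. The same form stood at the start of 1404 of 27305 genes in the table (5.14%). In the window of 250 bases before to 50 after the start, searched on both strands, CCGGAAG, the core of ETS factor sites, was found in 36.2% of the 58 genes and in 12.2% of all genes. AAGATGGC, the core of YY1 sites, was found in 10.3% against 3.52%, and TATAAA, the TATA box, in 6.9% against 14%. A match is a description of these letters and not a site. Shown here are the start sites of the 7 genes called between groups that the table holds, then RPS6 and RPS27, which were called in no comparison, and last RPS27L, a paralog of RPS27 known as a p53 target. Each runs from 15 bases before the start to 15 bases into the transcript, and capitals mark the pyrimidine stretch that begins at the start.
RPS21, chr20:62387088-62387117, plus strand: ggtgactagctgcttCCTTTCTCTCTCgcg
RPL34, chr4:108620561-108620590, plus strand: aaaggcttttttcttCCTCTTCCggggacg
RPS23, chr5:82278340-82278369, minus strand: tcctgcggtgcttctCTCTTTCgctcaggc
RPL13, chr16:89560667-89560696, plus strand: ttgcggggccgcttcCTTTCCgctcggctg
RPL28, chr19:55385917-55385946, plus strand: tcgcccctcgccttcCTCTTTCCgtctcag
RPL36A, chrX:101390996-101391025, plus strand: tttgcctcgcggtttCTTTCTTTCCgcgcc
RPS26, chr12:56041903-56041932, plus strand: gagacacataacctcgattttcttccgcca
RPS6, chr9:19380222-19380251, minus strand: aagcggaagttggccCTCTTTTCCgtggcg
RPS27, chr1:153990747-153990776, plus strand: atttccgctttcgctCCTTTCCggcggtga
RPS27L, chr15:63157463-63157492, minus strand: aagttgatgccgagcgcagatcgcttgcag
The stretch runs 12 letters in RPS21, 10 in RPL36A and 9 in RPS6, while RPS26 and RPS27L do not start with it. RPL13 and RPL34 have further annotated starts without it. Of the 10 genes called below in a comparison between groups 7 had a start in the table and 6 of these had the stretch, against 31 of 44 genes with a mean log2 signal of 15 or more, none of which was called.

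On every array the ribosomal protein genes lay at the top of the signal range. The median raw signal of the 68 genes was between 37455 and 51883 intensity units, which was 67.4% to 81.8% of the highest signal on the same array. Between 50 and 54 of them stood among the 472 brightest probes of 47224, and RPS27, a small subunit protein with a zinc finger, reached the highest signal of an array. Over all probes the median lay between 171 and 202 on control arrays but between 477 and 623 on the other 9, so the background of the control arrays was lower while the ribosomal protein signal was not. After quantile normalization the highest value was 15.84 on the log2 scale on every array, and the median of the 68 genes was between 15.40 and 15.48. By mean log2 signal RPS27 (15.77), RPL41 (15.70), the smallest protein of the ribosome, and RPL3 (15.65), a protein close to the peptidyl transferase centre, came highest, and RPL36A (9.49), RPS23 (9.69) and RPL37 (10.45) lowest. Signals of different probes do not order the genes by transcript number, and normalized values are relative to the other probes of the array.

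**Figure D1:**
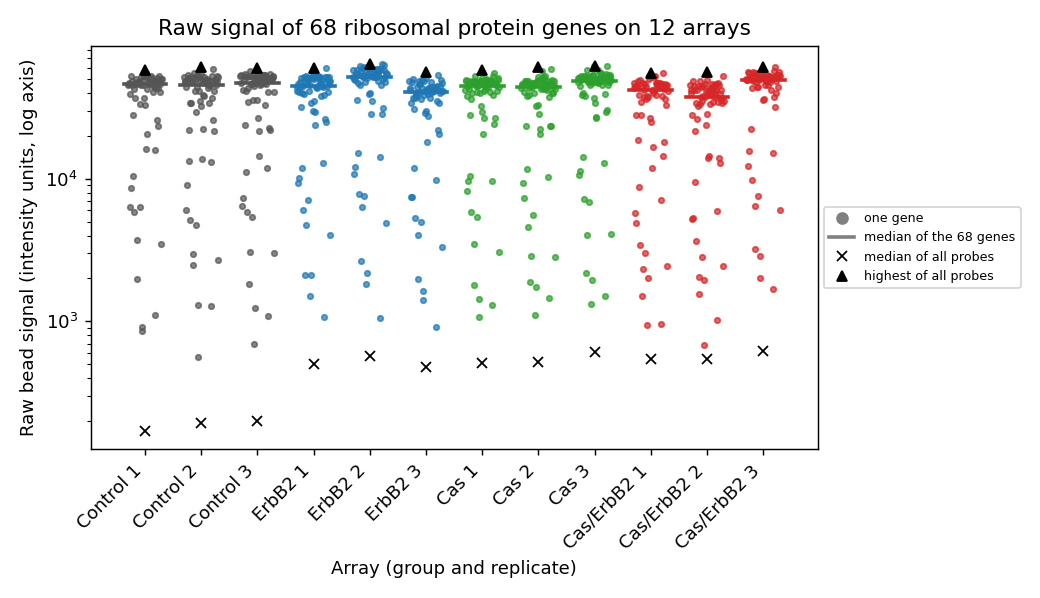
Raw bead signal (log axis, intensity units) of the 68 ribosomal protein genes on each of the 12 arrays; dots are genes, bars their median, crosses the median of all probes and triangles the highest signal of the array. Most genes crowd just under the highest signal, and the medians of all probes are lowest on the 3 control arrays.

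Of the 68 genes 50 had a mean log2 signal of 15 or more over the 12 arrays, a division made after the values were seen. Their group means lay close together: highest minus lowest group mean had a median of 0.11 on the log2 scale (0.04 to 0.36), with a pooled SD within groups of 0.09 in the median. RPL4, a large subunit protein with a loop in the exit tunnel, had the widest range of these 50. It read 15.20, 15.18 and 15.17 on the control arrays, 14.73, 14.91 and 14.83 on the ErbB2 arrays, 15.05, 15.01 and 14.97 on the Cas arrays and 15.05, 14.90 and 15.49 on the Cas/ErbB2 arrays. Its ErbB2 arrays lay below those of control, and the difference did not pass (log2 -0.36 ± 0.15 SE, adjusted p = 0.0796 by limma with Benjamini-Hochberg adjustment over all 16171 items, as for every adjusted p below).

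The other 18 genes, with probes that read lower, had a median range of 0.47 (0.09 to 1.10) and a pooled SD of 0.18, and all 10 genes called in any of the 6 comparisons between groups were among them. RPL5 (mean log2 14.91) lay just under the division and RPL4 (15.04) just above it. Over all items, of 350 with a mean of 15 or more the share called against control was 2.00% in ErbB2, 4.57% in Cas/ErbB2 and 1.43% in Cas cells, and of items under 15 it was 31.3%, 46.4% and 30.0%. In Cas/ErbB2 against ErbB2 these shares were 0.286% and 2.80%, in Cas/ErbB2 against Cas 2.29% and 10.8%, in ErbB2 against Cas 0.00% and 1.58%, in the interaction 0.857% and 14.5%, and over the 4 groups 3.43% and 41.5%. None of the 50 genes was called in any of these by limma, and at an unadjusted p under 0.05 1 of them stood out in ErbB2 against control, 1 in Cas/ErbB2 against ErbB2 and 1 in the interaction. The 95% intervals of the differences from control over the 50 genes ran from -0.56 to 0.62 for Cas, -0.68 to 0.55 for ErbB2 and -0.69 to 0.46 for Cas/ErbB2. Whether a ceiling of the scanner or of the normalization narrowed these differences was not tested. Further probes of the same genes that read lower are given below. Under the alternatives the number of the 50 called in any comparison was 0 to 5, with 1 after leaving out Cas/ErbB2 replicate 3, apart from median scaling over all probes, which called all 50.

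**Figure D2:**
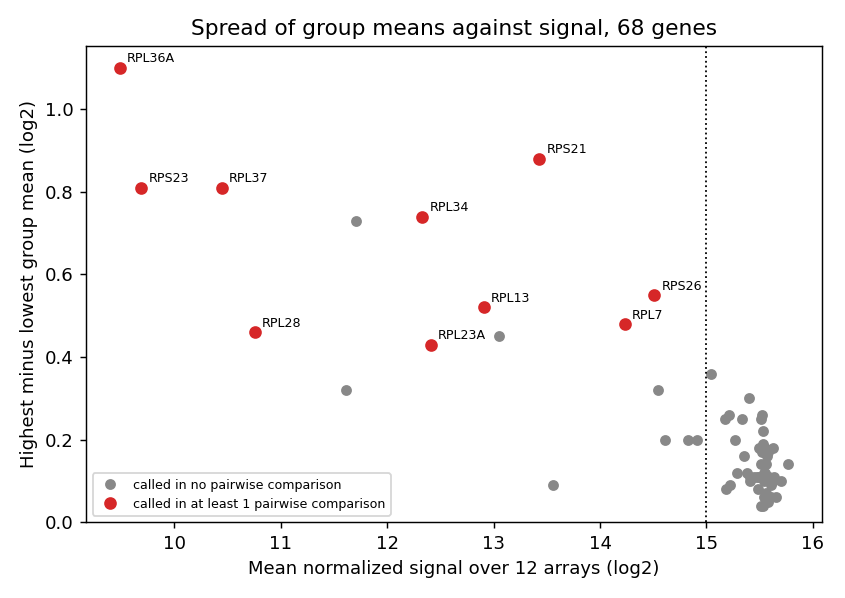
Highest minus lowest of the 4 group means (log2) against the mean normalized signal over 12 arrays (log2) for 68 ribosomal protein genes; red dots are the 10 genes called in at least 1 comparison of groups and the dotted line stands at 15. All red dots lie left of the line, where ranges reach 1.10, and no gene right of it exceeds 0.36.

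The comparison of Cas/ErbB2 cells with control asks what went with both proteins together. In them 6 ribosomal protein genes fell, RPS21, RPL34, RPS26, RPS23, RPL28 and RPL23A, and RPL37 rose, while 61 did not pass. Over all items 24.5% were called lower and 21.0% higher, 45.5% in all, and of the 68 genes 10.3%. All 7 calls were among the 18 genes under 15, 38.9% of them, against 46.4% of all items under 15, so the counts are no result about ribosomal protein genes as a set. By subunit, 3 of 42 large and 3 of 26 small subunit genes were lower. The median difference over the 68 genes was -0.04 after quantile normalization. With median scaling it was -0.41 relative to the median of all items, a value that is the same for either median scaling by construction. Next to these the highest differences were those of RPL21 (log2 0.20 ± 0.21, adjusted p = 0.454), RPL7 (log2 0.17 ± 0.15, adjusted p = 0.394), RPL8 (log2 0.11 ± 0.11, adjusted p = 0.422) and RPL32 (log2 0.10 ± 0.11, adjusted p = 0.443), which did not pass. All 3 comparisons with control share the control arrays, for which the labels give their own hybridization numbers, III for replicates 1 and 2 and II for replicate 3. Hybridization, the lower background and the control group cannot be told apart.

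RPS21, a small subunit protein, read 14.14, 13.77 and 13.66 on the control arrays, 13.57, 13.45 and 13.31 on ErbB2, 13.40, 13.43 and 13.45 on Cas and 13.10, 12.84 and 12.98 on Cas/ErbB2 arrays. Control was highest, ErbB2 and Cas lay between, and Cas/ErbB2 was lowest, with no overlap between Cas/ErbB2 and any other group. Against control RPS21 was 1.84-fold lower in Cas/ErbB2 cells (log2 -0.88 ± 0.14, adjusted p = 4.43e-04). RPL34, a large subunit protein, read 12.81, 12.24 and 12.48 on control, 12.70, 12.52 and 12.27 on ErbB2, 12.51, 12.52 and 12.54 on Cas and 11.76, 11.67 and 11.90 on Cas/ErbB2 arrays. Here control, ErbB2 and Cas overlapped and all 3 Cas/ErbB2 arrays lay below the other 9. The fall against control was 1.66-fold (log2 -0.73 ± 0.16, adjusted p = 0.00311).

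RPS26, which lies at the channel where mRNA leaves the small subunit, read 14.79, 14.81 and 14.58 on control, 14.58, 14.47 and 14.44 on ErbB2, 14.66, 14.61 and 14.67 on Cas and 14.17, 14.18 and 14.20 on Cas/ErbB2 arrays. Its 3 Cas/ErbB2 arrays were again below all others after normalization, 1.46-fold lower than control (log2 -0.55 ± 0.11, adjusted p = 0.00209). In raw intensity units RPS26 read 14527.7, 14083.7 and 31892.6 on them, against 25749.9, 25876.9 and 22576.6 on control arrays. RPL34 and RPS21 also had higher raw signals on Cas/ErbB2 replicate 3 (7561.6 and 15215.3) than on replicates 1 and 2. For replicate 3 the low place of these genes thus rests on the normalization. RPS23, a protein of the decoding centre, read 10.13, 10.10 and 9.84 on control, 9.46, 9.06 and 9.15 on ErbB2, 10.06, 10.17 and 9.89 on Cas and 9.47, 9.63 and 9.37 on Cas/ErbB2 arrays. It was low in both groups with ErbB2 in their title, and Cas arrays overlapped control. In Cas/ErbB2 cells it was 1.45-fold below control (log2 -0.53 ± 0.15, adjusted p = 0.0117). These falls of RPS21, RPL34, RPS26 and RPS23 were called under all 25 alternatives tried. One of these, median scaling over all probes, called all 68 genes lower and gave -2.64, -2.53, -2.35 and -2.46 for the 4 genes. RPS23 was smallest with the authors' processed values (-0.35).

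RPL28, a large subunit protein that budding yeast lacks, read 11.08, 11.23 and 10.72 on control and 10.53, 10.58 and 10.54 on Cas/ErbB2 arrays, a fall of 0.46 on the log2 scale (SE 0.13, adjusted p = 0.0151). RPL23A, at the tunnel exit where chaperones and the signal recognition particle dock, read 12.71, 12.38 and 12.59 on control and 11.98, 12.10 and 12.31 on Cas/ErbB2 arrays, lower by log2 -0.43 ± 0.15 (adjusted p = 0.0382). The RPL28 call was lost without control replicate 2 (0.0726) and in a fit of the 6 arrays alone (0.0598). RPL23A missed without control replicates 1 (0.127) and 3 (0.0927), without Cas/ErbB2 replicates 1 (0.122) and 2 (0.0883), in the 6 arrays alone (0.0647) and with median scaling over probes detected on all arrays (0.124). RPL37, a zinc-binding large subunit protein, was the exception in direction. It read 9.80, 10.14 and 10.06 on control, 10.79, 10.53 and 10.42 on ErbB2, 10.27, 10.52 and 10.40 on Cas and 11.09, 11.01 and 10.33 on Cas/ErbB2 arrays. Every array outside control lay above control, and the rise in Cas/ErbB2 cells was 1.76-fold (log2 0.81 ± 0.20, adjusted p = 0.00535), turning to -1.09 with median scaling over all probes.

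**Figure D3:**
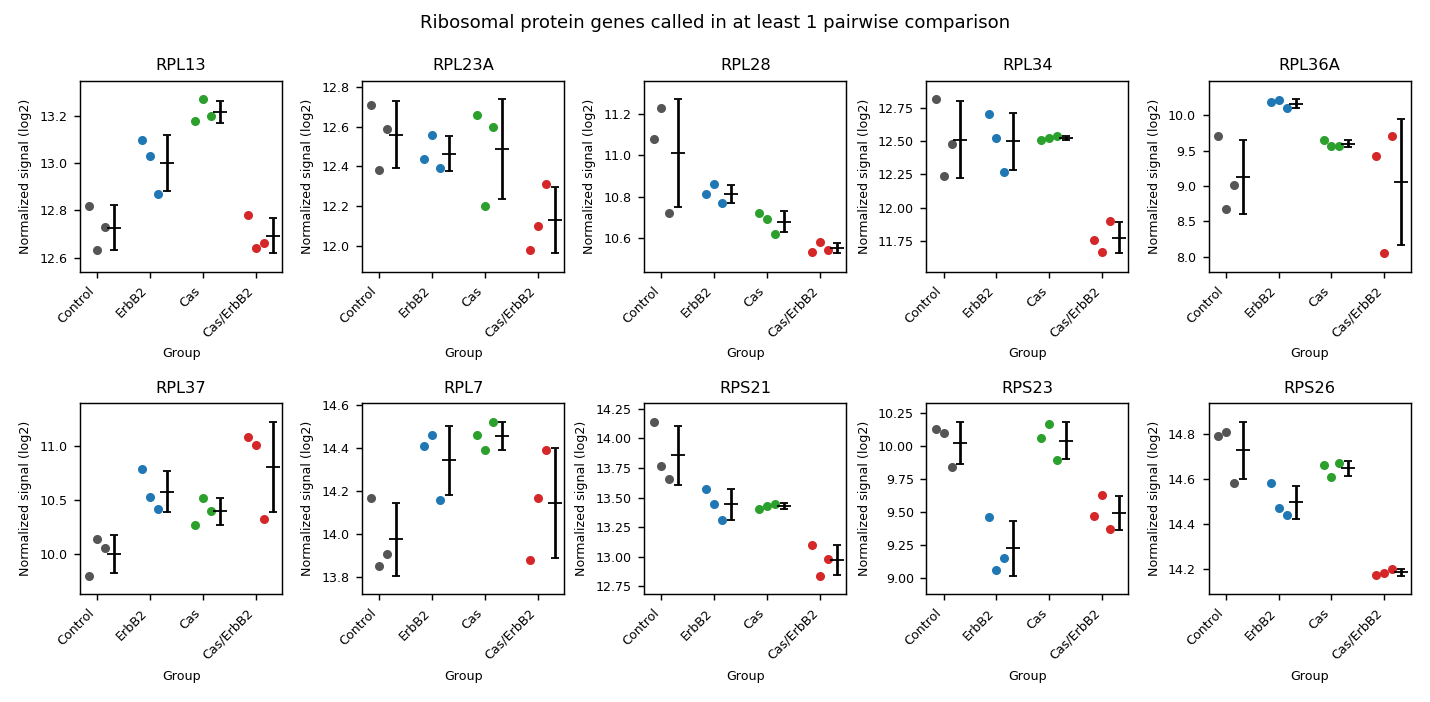
Normalized signal (log2) of the 10 ribosomal protein genes called in at least 1 comparison, by group; dots are the 3 arrays and the black mark is the mean with its SD. In RPS21, RPL34 and RPS26 the 3 Cas/ErbB2 arrays lie below all other arrays, and in RPS23 both groups with ErbB2 in their title lie below control and Cas.

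The comparison of ErbB2 cells with control asks what went with ErbB2 alone. RPS23 and RPS21 fell, RPL36A and RPL37 rose, and 64 genes did not pass. The 4 genes are 5.88% of the 68, against 30.6% of all items called, and 22.2% of the 18 under 15, against 31.3% of all items under 15. RPS23 was 1.74-fold lower (log2 -0.80 ± 0.15, adjusted p = 0.00168), and this was called under all 25 alternatives, with -2.52 under median scaling over all probes, which called 67 genes lower, and -0.51 with the authors' processed values. RPS21 was lower by log2 -0.41 ± 0.14 (adjusted p = 0.0464). RPL36A, a large subunit protein near the site where spent tRNA leaves, read 9.70, 8.67 and 9.02 on control, 10.18, 10.21 and 10.10 on ErbB2, 9.65, 9.56 and 9.57 on Cas and 9.43, 8.05 and 9.71 on Cas/ErbB2 arrays. The ErbB2 arrays were level and highest, while control and Cas/ErbB2 were scattered, and the rise was 2.05-fold (log2 1.03 ± 0.36, adjusted p = 0.0453). RPL37 rose 1.50-fold (log2 0.58 ± 0.20, adjusted p = 0.0408). Both rises turned to falls with median scaling over all probes (-0.67 for RPL36A and -1.12 for RPL37).

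The calls of RPS21, RPL36A and RPL37 in ErbB2 cells lay near the threshold, and each was lost on leaving out any of several arrays. Cas arrays were among these, which enter the shared spread but not the difference. RPS21 missed without control replicates 1 (0.173) and 2 (0.0768), ErbB2 replicates 1 (0.0536), 2 (0.0962) and 3 (0.141) and Cas replicates 1 (0.0599), 2 (0.0601) and 3 (0.06), in the 6 arrays alone (0.0642), without the detection filter (0.0515) and with median scaling over probes detected on all arrays (0.25). RPL36A missed without control replicates 2 (0.167) and 3 (0.113), ErbB2 replicates 1 (0.0961), 2 (0.104) and 3 (0.0874) and Cas replicates 1 (0.0567), 2 (0.0581) and 3 (0.0582), and without the detection filter (0.0536). RPL37 missed without control replicates 1 (0.136), 2 (0.0619) and 3 (0.0757), ErbB2 replicates 1 (0.133), 2 (0.0777) and 3 (0.0522) and Cas replicate 3 (0.0532). Among the next in size were RPL4, given above, RPL29 (log2 0.39 ± 0.19, adjusted p = 0.13), RPL7 (log2 0.37 ± 0.15, adjusted p = 0.0883), RPL13 (log2 0.27 ± 0.12, adjusted p = 0.0919), RPL37A (log2 -0.25 ± 0.15, adjusted p = 0.243) and RPS26 (log2 -0.23 ± 0.11, adjusted p = 0.139), none of which passed.

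The comparison of Cas cells with control asks what went with Cas alone. RPL13 and RPL7 rose, RPS21 fell and 65 genes did not pass. The 3 genes are 4.41% of the 68, against 29.4% of all items called, and 16.7% of the 18 under 15, against 30.0%. RPL13, a large subunit protein, read 12.82, 12.63 and 12.73 on control, 13.10, 13.03 and 12.87 on ErbB2, 13.18, 13.27 and 13.20 on Cas and 12.78, 12.64 and 12.66 on Cas/ErbB2 arrays. Cas arrays were highest, ErbB2 arrays next, and Cas/ErbB2 arrays overlapped control. The rise in Cas cells was 1.40-fold (log2 0.49 ± 0.12, adjusted p = 0.00828), turning to -1.28 with median scaling over all probes and called under the other alternatives. RPL7 read 14.17, 13.85 and 13.91 on control, 14.41, 14.46 and 14.16 on ErbB2, 14.46, 14.39 and 14.52 on Cas and 13.88, 14.17 and 14.39 on Cas/ErbB2 arrays. Its rise in Cas cells was 1.39-fold (log2 0.48 ± 0.15, adjusted p = 0.0344), -1.24 with the same scaling, and it missed without control replicates 2 (0.122) and 3 (0.0996) and Cas replicates 1 (0.0809), 2 (0.0596) and 3 (0.0926). RPS21 was lower by log2 -0.43 ± 0.14 (adjusted p = 0.041) and missed without control replicates 1 (0.154) and 2 (0.0717), ErbB2 replicate 2 (0.0555) Cas replicates 1 (0.0991), 2 (0.0895) and 3 (0.0809), and with median scaling over probes detected on all arrays (0.183). Not passing, but among the highest and lowest, were RPL36A (log2 0.46 ± 0.36, adjusted p = 0.355), RPL37 (log2 0.40 ± 0.20, adjusted p = 0.144), RPL35 (log2 0.26 ± 0.14, adjusted p = 0.18), RPL28 (log2 -0.33 ± 0.13, adjusted p = 0.0811), RPL37A (log2 -0.22 ± 0.15, adjusted p = 0.298), RPL4 (log2 -0.17 ± 0.15, adjusted p = 0.41) and RPL5 (log2 -0.14 ± 0.18, adjusted p = 0.586).

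The comparisons among ErbB2, Cas and Cas/ErbB2 cells leave out the control arrays. Cas/ErbB2 cells had 4 genes lower than Cas cells, RPL34, RPS23, RPL13 and RPS26, and 0 higher, against 5.70% of all items lower and 4.95% higher (10.6% in all). The 4 are 5.88% of the 68 and 22.2% of the 18 under 15, where 10.8% of all items under 15 were called. RPL34 was 1.68-fold lower (log2 -0.74 ± 0.16, adjusted p = 0.00985), RPS23 lower by log2 -0.55 ± 0.15 (adjusted p = 0.0329), RPL13 by log2 -0.52 ± 0.12 (adjusted p = 0.012) and RPS26 by log2 -0.46 ± 0.11 (adjusted p = 0.0197). Of the 68 genes 52 had a negative difference, with a median of -0.06 against -0.02 over all items. Against control 47 were negative in Cas/ErbB2, 35 in ErbB2 and 25 in Cas cells. In Cas/ErbB2 against ErbB2 46 were negative, and in ErbB2 against Cas 41. The genes share the arrays, so these counts are no test. Of the genes not called against Cas, RPL36A (log2 -0.53 ± 0.36, adjusted p = 0.419) was among the lowest, and RPL37 (log2 0.41 ± 0.20, adjusted p = 0.227), RPL37A (log2 0.16 ± 0.15, adjusted p = 0.609), RPL4 (log2 0.13 ± 0.15, adjusted p = 0.661), RPL10A (log2 0.13 ± 0.12, adjusted p = 0.612) and RPL21 (log2 0.10 ± 0.21, adjusted p = 0.845) were highest. RPL34 was called with any single array left out. With median scaling over all probes all 4 missed, RPL34 with an adjusted p of 0.385. RPL13 missed without Cas replicate 2 (0.0503), in the 6 arrays alone (0.072) and with median scaling over probes detected on all arrays (0.0598). RPS23 missed without Cas replicates 1 (0.0965) and 2 (0.12) and Cas/ErbB2 replicates 1 (0.0785) and 3 (0.0621), in the 6 arrays alone (0.0916), in the 9 arrays without control (0.0587), with array weights (0.0654), without the detection filter (0.0607) and with the latter scaling (0.0592). RPS26 missed without Cas replicates 1 (0.0674), 2 (0.0501) and 3 (0.0629) and Cas/ErbB2 replicates 1 (0.0517) and 2 (0.0541), and in the 6 arrays alone (0.0928).

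Against ErbB2 cells RPL34 was the gene called lower in Cas/ErbB2 cells (1.64-fold, log2 -0.72 ± 0.16, adjusted p = 0.0356), where 2.75% of all items were called. It missed without control replicate 3 (0.06), ErbB2 replicates 1 (0.131) and 2 (0.121), Cas replicates 1 (0.0554), 2 (0.0545) and 3 (0.0524) Cas/ErbB2 replicates 1 (0.0934) and 2 (0.119), in the 6 arrays alone (0.166), without the detection filter (0.064), with probe means (0.0556) and with median scaling (0.384 over all probes, 0.0769 over those detected on all arrays). Larger differences that did not pass were those of RPL36A (log2 -1.10 ± 0.36, adjusted p = 0.134) and RPL29 (log2 -0.73 ± 0.19, adjusted p = 0.0627), a large subunit protein. RPS21 (log2 -0.47 ± 0.14, adjusted p = 0.115) and RPL14 (log2 -0.35 ± 0.18, adjusted p = 0.367) followed, and highest were RPL4 (log2 0.32 ± 0.15, adjusted p = 0.292), RPS23 (log2 0.26 ± 0.15, adjusted p = 0.403), RPL37 (log2 0.23 ± 0.20, adjusted p = 0.614), RPL37A (log2 0.18 ± 0.15, adjusted p = 0.614) and RPL24 (log2 0.17 ± 0.11, adjusted p = 0.46). Cas/ErbB2 replicate 3 stood apart from replicates 1 and 2, with 15984 probes detected against 12864 and 13350, and without it 4 genes were called in this comparison and 5 against Cas. The share of all items called without that array is not given here, so these counts are no result about ribosomal protein genes as a set. Between ErbB2 and Cas cells RPS23 was lower in ErbB2 (1.76-fold, log2 -0.81 ± 0.15, adjusted p = 0.0154), where 1.55% of all items were called. The call missed without ErbB2 replicates 2 (0.0806) and 3 (0.0733) and Cas replicates 1 (0.0673) and 2 (0.0712), and with median scaling over all probes (0.849). The other 67 genes did not pass, among them RPL36A (log2 0.57 ± 0.36, adjusted p = 0.644), RPL29 (log2 0.42 ± 0.19, adjusted p = 0.423), RPL37 (log2 0.18 ± 0.20, adjusted p = 0.832), RPS7 (log2 0.18 ± 0.16, adjusted p = 0.782) and RPL28 (log2 0.13 ± 0.13, adjusted p = 0.81) at the top. At the bottom were RPS27L (log2 -0.22 ± 0.15, adjusted p = 0.696), RPL13 (log2 -0.21 ± 0.12, adjusted p = 0.569), RPL4 (log2 -0.19 ± 0.15, adjusted p = 0.73) and RPL24 (log2 -0.17 ± 0.11, adjusted p = 0.658).

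The interaction asks whether ErbB2 went with the same change in cells with Cas as in cells without. It includes the control arrays, whose hybridization and lower background cannot be told apart from the group. RPL13 passed with a negative term (log2 -0.80 ± 0.16, adjusted p = 0.00641), where 14.2% of all items were called. The term was 0.74 with median scaling over all probes. Near the threshold were RPL34 (log2 -0.73 ± 0.23, adjusted p = 0.0503), RPL7 (log2 -0.68 ± 0.22, adjusted p = 0.0568) and RPL36A (log2 -1.57 ± 0.51, adjusted p = 0.0596), with RPL29 (log2 -0.70 ± 0.27, adjusted p = 0.106) next. Highest were RPL4 (log2 0.50 ± 0.21, adjusted p = 0.14), RPL37A (log2 0.41 ± 0.22, adjusted p = 0.249), RPS23 (log2 0.25 ± 0.21, adjusted p = 0.477), RPL18 (log2 0.19 ± 0.17, adjusted p = 0.509) and RPL10A (log2 0.18 ± 0.17, adjusted p = 0.54), none of which passed. Over the 4 groups together a moderated F test called 7 of the 68 genes, RPL13, RPL29, RPL34, RPL37, RPS21, RPS23 and RPS26, against 40.7% of all items.

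Of the 68 genes 27 had at least 1 further probe detected on all 12 arrays, 38 probes in all, and a fit of every kept probe as an item of its own shows how these read. In Cas/ErbB2 cells against control 7 of the 38 were called lower and 2 higher, where 25.8% of all kept probes were lower and 20.6% higher (46.4% in all). The counts were 2 in ErbB2 (31.8% of all kept probes), 1 in Cas (30.8%), 2 in Cas/ErbB2 against Cas (10.4%) and 0 against ErbB2 (2.71%). Of the 38 probes 17 read under 15, and 13 of these belong to genes whose brightest probe read 15 or more. Of those 13 probes 6 were lower in Cas/ErbB2 cells than in control (RPL32, RPL37A, RPL6, RPL8, RPS24 and RPS4X) and 1 higher (RPL41), while the brightest probe of each did not pass. Of all items under 15, 46.4% were called in this comparison, so these counts are no result about the further probes as a set. RPL6, a large subunit protein, had a further probe at 10.72, 10.21 and 10.62 on control and 9.12, 9.49 and 9.91 on Cas/ErbB2 arrays, with no overlap and a difference of log2 -1.01 ± 0.24 (adjusted p = 0.00467), where its brightest probe differed by log2 -0.14. RPL32 gave log2 -0.98 ± 0.21 (adjusted p = 0.00245) against 0.10 with its brightest probe. RPL8, which helps shape the peptidyl transferase centre, gave log2 -0.59 ± 0.17 (adjusted p = 0.0128) against 0.11.

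**Figure D4:**
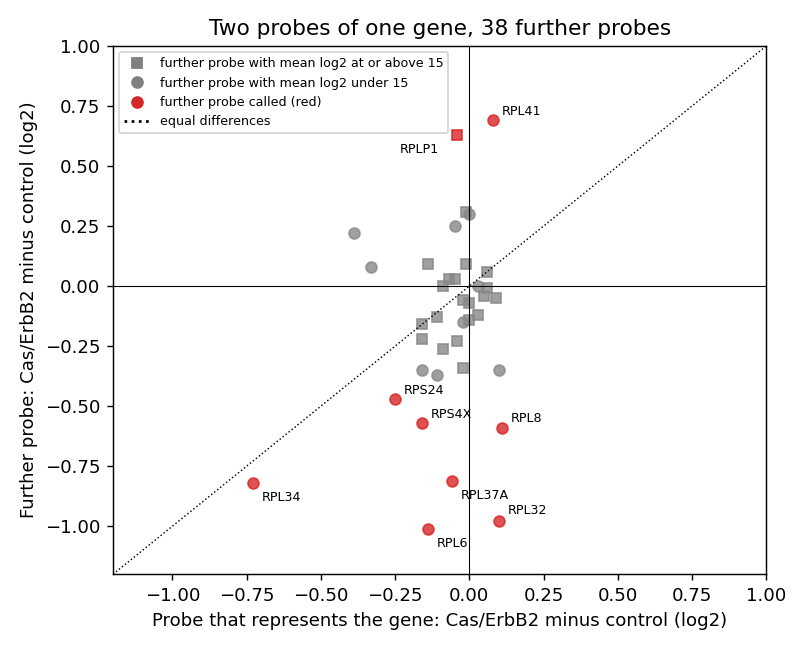
Difference between Cas/ErbB2 and control cells (log2) by the further probe of a gene (vertical) and by the probe that represents it (horizontal), for 38 further probes; circles are further probes with a mean under 15 and squares those at 15 or more, and red marks those called. Of 9 red marks RPL34 alone lies near the line of equal differences below zero, and the others lie along a horizontal difference between -0.25 and 0.11.

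RPL34 was the called gene with a further probe detected on all arrays, and both probes went the same way. The further probe read 12.67, 12.25 and 12.20 on control, 12.22, 12.36 and 12.00 on ErbB2, 12.25, 12.04 and 12.53 on Cas and 11.39, 11.31 and 11.95 on Cas/ErbB2 arrays, again lowest in Cas/ErbB2. It was lower than control by log2 -0.82 ± 0.20 (adjusted p = 0.00598) and lower than Cas by log2 -0.72 ± 0.20 (adjusted p = 0.0412). RPLP1, an acidic protein of the stalk that recruits elongation factors, had a further probe at 14.72, 14.46 and 14.48 on control, 14.93, 15.33 and 15.27 on ErbB2, 15.46, 15.32 and 15.53 on Cas and 15.41, 15.25 and 14.89 on Cas/ErbB2 arrays. All 9 arrays outside control were higher, by log2 0.89 ± 0.16 in Cas (adjusted p = 0.00155), where its brightest probe differed by log2 0.03.

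A further RPL13 probe was detected on all control, ErbB2 and Cas arrays but on 1 of the 3 Cas/ErbB2 arrays. It read 9.31, 9.08 and 9.06 on control, 9.16, 8.60 and 8.55 on ErbB2, 8.69, 8.51 and 8.55 on Cas and 6.97, 7.25 and 7.79 on Cas/ErbB2 arrays. Its Cas/ErbB2 arrays lay below the other 9, mostly not above background, so no size is given. In ErbB2 and Cas against control, where every array measured it, this probe did not pass (log2 -0.38, adjusted p = 0.19, and log2 -0.56, adjusted p = 0.0636), with a sign opposite to that of the brighter probe. A further probe of RPL36, a large subunit protein, was likewise detected on 1 of 3 Cas/ErbB2 arrays, reading 9.36, 9.22 and 9.03 on control and 7.31, 7.45 and 8.40 on Cas/ErbB2 arrays. Further probes of RPL32 and RPS26 were detected on the 3 control arrays alone and give no size either. Ribosomal protein genes have many processed pseudogenes, and which transcripts of a gene or copy each probe reads is not given in the files. What sets probes of a gene apart was not tested.

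Groups by role hold few genes each, and their counts are no test of a role. In the comparisons between groups 1.55% to 45.5% of all items were called. RPL5 and RPL11, which bind 5S rRNA and can hold the p53 regulator MDM2, did not pass in any comparison between groups. RPL5 read 15.09, 15.10 and 14.87 on control and 14.94, 15.15 and 14.36 on Cas/ErbB2 arrays, and RPL11 15.47, 15.54 and 15.44 against 15.50, 15.54 and 15.36. In the stalk, RPLP1, RPLP2 and RPL12 gave 0 calls with their brightest probes. All 3 read 15 or more, where 0.00% to 4.57% of all items were called. RPLP2 had group means from 15.55 ± 0.04 (SD, n = 3) in control to 15.73 ± 0.07 in Cas cells. In Cas/ErbB2 cells against control 1 of 9 genes chosen for the exit tunnel (11.1%), RPL23A, and 2 of 6 measured near the mRNA path of the small subunit (33.3%), RPS23 and RPS26, were lower, where 24.5% of all items were. RPS23 and RPS26 were also the 2 of these 6 lower in Cas/ErbB2 than in Cas cells (33.3%), where 5.70% of all items were. RPS6, the substrate of S6 kinase, had group means between 15.58 ± 0.04 in control and 15.64 ± 0.07 in Cas cells. The paralog RPS27L had 14.70 ± 0.11 in Cas, 14.59 ± 0.06 in control, 14.48 ± 0.10 in ErbB2 and 14.38 ± 0.30 in Cas/ErbB2 cells, and no comparison passed. RPL39L, left out by its detection, and RPS27L were the measured members of the list of paralogs, with 0 calls.

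Other genes of translation were read from lists for comparison. Of 15 measured translation genes that are also TOP mRNAs, 4 were lower in Cas/ErbB2 cells than in control and 0 higher, with HNRNPA1 (log2 -1.01 ± 0.25, adjusted p = 0.00689), EIF3F (log2 -0.51 ± 0.12, adjusted p = 0.0053), the poly(A) binding protein PABPC1 (log2 -0.41 ± 0.15, adjusted p = 0.0421) and EIF4B (log2 -0.33 ± 0.12, adjusted p = 0.0412). The 4 are 26.7%, near the 24.5% of all items lower, and the median difference of the 15 was -0.19. In ErbB2 cells 2 of them were lower, HNRNPA1 (log2 -0.93 ± 0.25, adjusted p = 0.0159) and EIF4B (log2 -0.44 ± 0.12, adjusted p = 0.0149). In Cas cells 0 were lower. Of 76 mitochondrial ribosomal protein genes 26 were lower and 4 higher in Cas/ErbB2 cells (34.2% lower, median -0.21), MRPL52 (log2 -1.36 ± 0.33, adjusted p = 0.00509) and MRPS11 (log2 -0.93 ± 0.17, adjusted p = 8.91e-04) among them. Lower and higher were 4 and 9 in ErbB2 cells, and 4 lower and 3 higher in Cas cells. Over all items 24.5% were lower and 21.0% higher in Cas/ErbB2 cells, and 30.6% and 29.4% were called in ErbB2 and in Cas cells. None of these 76 had a mean signal of 15 or more, so their counts and those of the cytosolic genes come from different parts of the signal range.

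Of 29 measured genes that build ribosomes in the nucleolus 3 were higher and 0 lower in ErbB2 cells, 3 higher and 2 lower in Cas cells, and 4 higher and 3 lower in Cas/ErbB2 cells, where 30.6%, 29.4% and 45.5% of all items were called. PES1, a factor of large subunit assembly, was higher in all 3 (log2 0.87 ± 0.19 in ErbB2, 0.81 ± 0.19 in Cas/ErbB2 and 0.78 ± 0.19 in Cas, adjusted p = 0.00457, 0.00456 and 0.00962). The largest called changes in Cas/ErbB2 cells were falls of NOLC1 (log2 -1.19 ± 0.35, adjusted p = 0.0158) and RRP1B (log2 -0.97 ± 0.36, adjusted p = 0.0446), each detected on 10 arrays. Lower in Cas cells were RRP12 (log2 -0.60 ± 0.20, adjusted p = 0.0399) and POLR1B, detected on 5 arrays. Of 10 chaperones and importers of ribosomal proteins 4 were lower, where 24.5% of all items were, and 1 higher in Cas/ErbB2 cells. IPO5, an importer, was lower (log2 -1.07 ± 0.34, adjusted p = 0.024), as were TSR2, the chaperone of RPS26 (log2 -0.88 ± 0.20, adjusted p = 0.00445), and the importer IPO7, detected on 4 arrays, while LTV1, a factor of small subunit assembly, was higher (log2 0.49 ± 0.13, adjusted p = 0.00988). Of 11 measured regulators of TOP mRNA translation 2 were higher and 4 lower in Cas/ErbB2 cells, against 45.5% of all items called. EIF4EBP1, the mTOR substrate that blocks cap binding, was higher in ErbB2 (log2 1.16 ± 0.23, adjusted p = 0.00297), Cas (log2 0.76 ± 0.23, adjusted p = 0.0294) and Cas/ErbB2 cells (log2 1.77 ± 0.23, adjusted p = 8.44e-05). Its rise was larger in Cas/ErbB2 than in Cas cells (log2 1.02 ± 0.23, adjusted p = 0.015). EIF4EBP1 was detected on all 12 arrays, but its control mean of 7.89 was near that of the RPL32 probe detected on control arrays alone (7.86). How far its sizes against control depend on the background was not tested. TSC1 and TSC2, which form the complex that restrains mTOR, were lower than control in Cas/ErbB2 cells (log2 -0.50 ± 0.15 and -0.64 ± 0.21, adjusted p = 0.0152 and 0.0262). Both were also lower in ErbB2 cells (log2 -0.49 ± 0.15 and -0.68 ± 0.21, adjusted p = 0.0243 and 0.0295), and TSC1 in Cas cells (log2 -0.54 ± 0.15, adjusted p = 0.0167). RPS6KA1, detected on 11 arrays, was lower than control in Cas/ErbB2 (log2 -1.59 ± 0.25, adjusted p = 3.77e-04) and ErbB2 cells (log2 -0.75 ± 0.25, adjusted p = 0.0418). In Cas/ErbB2 against Cas cells 2 of the 11 were higher and 1 lower, where 10.6% of all items were called. DDIT4 was higher (log2 0.54 ± 0.15, adjusted p = 0.0324), as was EIF4EBP1, and RPS6KA1 was lower (log2 -1.03 ± 0.25, adjusted p = 0.0214). CDKN1A, the p53 target that halts the cell cycle, was lower than control in all 3 groups (log2 -0.61 ± 0.13 in ErbB2, -0.40 ± 0.13 in Cas/ErbB2 and -0.53 ± 0.13 in Cas, adjusted p = 0.00328, 0.0219 and 0.00818). Of the 3 measured ribosomal protein genes whose symbols fall outside the rule 0 were called in any comparison, where 1.55% to 45.5% of all items were called. Directions against control in these lists rest on quantile normalization, since median scaling over all probes moved the median of all items by -1.45 in ErbB2, -1.61 in Cas/ErbB2 and -1.66 in Cas.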

How the data were processed

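Each deposited probe has a raw bead intensity (linear, per the file headers not normalized) and a detection p-value per array. Processed intensities of the authors, with a median of 440 on every array, served as an alternative. No source used here names the software that made them. Arrays were grouped by title; 0 sample columns went unused. Background was fitted from the detection p-values (neqc, offset 16, limma 3.58.1, R 4.3.3) before quantile normalization and log2. Probes detected (p under 0.05) on at least 3 arrays were kept (19777). A gene is its brightest probe detected on all 12 arrays, or else its brightest kept probe. Group means were fitted to 16171 items on 12 arrays with empirical Bayes moderation, and calls were made at a Benjamini-Hochberg adjusted p under 0.05. The script was tested on simulated data. Alternatives were other background corrections, scalings, filters, probe rules, fits, a replicate block and leaving out each array. The number of arrays limits the precision, and 3 against 3 allows no exact permutation p below 0.1. Of the 47224 probes 30111 had 1 gene symbol, 8 several and 17105 none. Named were the 5 highest and 5 lowest genes of each comparison, every called gene, the 3 brightest and 3 dimmest, RPS27L, RPL39L, RPL5, RPL11, the stalk proteins, RPSA and RPS6, and at most 4 called genes per list and comparison. Further probes detected on all 12 arrays were named where called, and those of RPL13, RPL36, RPL32 and RPS26 that were called but not detected on every array. Members and lists were chosen with earlier results of these data known. Start sites were searched in Python 3.11.15, and plots made in matplotlib 3.10.9.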

Additional observations from a re-analysis of the deposited data

Results flagged for a closer look

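RPL13 had an interaction of -0.80 on the log2 scale between ErbB2 and Cas (SE 0.16, adjusted p = 0.00641 by limma). The term compares the change that went with ErbB2 in cells with Cas and in cells without. It includes the control arrays, whose hybridization and lower background cannot be told apart from the group. ErbB2 minus control was log2 0.27, which did not pass (adjusted p = 0.0919), and Cas/ErbB2 minus Cas was log2 -0.52. A further, dimmer RPL13 probe gave log2 -0.38 in ErbB2 minus control (adjusted p = 0.19). In Cas minus control it gave log2 -0.56 (adjusted p = 0.0636), where the brighter probe gave log2 0.49. The dimmer probe was lower in Cas/ErbB2 than in Cas cells, as was the brighter one. It was detected on 1 of 3 Cas/ErbB2 arrays, so no size is given. The term was 0.74 with median scaling over all probes.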

How the results depend on the processing

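Of 21 calls of a gene in a comparison 5 were called under all alternatives: RPS21, RPL34, RPS26 and RPS23 in Cas/ErbB2 against control, and RPS23 in ErbB2 against control. Counts of called ribosomal protein genes against control were 3 in Cas, 4 in ErbB2 and 7 in Cas/ErbB2 cells, and elsewhere 1 in Cas/ErbB2 against ErbB2, 4 against Cas, 1 in ErbB2 against Cas, 1 in the interaction and 7 over the 4 groups. Median scaling over all probes, most of them undetected, moved the median of all items by -1.45, -1.66 and -1.61 against control (ErbB2, Cas, Cas/ErbB2, as below) and 1.42 in the interaction. It called 67, 68 and 68 genes lower against control, 63 higher in the interaction and 68 over the 4 groups, and 0 in each comparison without control. It reversed RPL36A (-0.67) and RPL37 (-1.12) in ErbB2, RPL37 (-1.09) in Cas/ErbB2, RPL13 (-1.28) and RPL7 (-1.24) in Cas and RPL13 (0.74) in the interaction. Median scaling over probes detected on all 12 arrays, added after the data were seen, moved that median by 0.22, 0.21 and 0.28 against control. Relative to it the 68 genes had medians of -0.27, -0.18 and -0.41. It called 0 genes against ErbB2, 2 against Cas and 5 in the interaction. In Cas/ErbB2 against ErbB2 the count was 2 without background correction, with the authors' processed intensities and over items detected on all 12 arrays, 0 without the detection filter, with probe means and in the 6 arrays alone, 4 with trend and robust moderation and 3 with array weights. In the interaction it was 3 with normexp offset 50, 4 without background correction and with the authors' intensities, 2 over items detected on all arrays and with single probes, 6 with trend and robust moderation and 5 with array weights. Other counts past 1.5 times were 2 without the detection filter, 8 with trend and 8 with array weights in ErbB2 against control, 12 with probe means in Cas/ErbB2 against control, 1 in the 6 arrays of Cas/ErbB2 and Cas, and 12 with trend over the 4 groups. At adjusted p under 0.01 the counts were 1, 1 and 4 against control, 0 and 1 in Cas/ErbB2 against ErbB2 and Cas, and 0 in ErbB2 against Cas. Leaving out each array gave 1 to 5, 1 to 4 and 6 to 8 against control, 0 to 4 against ErbB2, 1 to 5 against Cas, 0 to 1 in ErbB2 against Cas, 1 to 5 in the interaction and 5 to 9 over the 4 groups. The cause of these shifts was not tested. With the replicate number as a block the interaction count was 3 and RPL7 in Cas missed (0.0507). Correlations of same-numbered arrays were -0.09 to 0.19, not all over 0.1, and the labels tie no number to a shared culture or day, so the numbers were not used as pairs. In 11 of 18 cases an array matched its own number best, a hint from the data and not the design.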
